A study of Mus musculus with 6 samples.

Results

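A group of 10 genes through which the intestinal epithelium responds to microbes and defends the mucosal surface was examined in intestinal crypts of wild-type (WT) and Mtg16 KO mice. They are the oxidase genes Duox2 and Nox1, the DUOX2 maturation factor gene Duoxa2, the nitric oxide synthase gene Nos2, the serum amyloid A genes Saa1, Saa2 and Saa3, the immunoglobulin receptor gene Pigr, the lipocalin gene Lcn2 and the fucosyltransferase gene Fut2. They were chosen by name for these functions, with earlier results of these data known, and are 10 of the 24736 gene symbols in the deposited table. Crypts came from the full-length gut of 12-week-old males, with 3 mice of each genotype, 1 library per mouse and no treatment. Crypts were released in cold PBS with 2 mM EDTA for 30 min. Libraries were made from 200 ng of total RNA after depletion of ribosomal RNA, with 14 PCR cycles. By the labels the knockout was made with CRISPR, but by the study's methods the Mtg16-/- line was a gift, and which allele was used stayed unresolved. Crypts of the whole gut length went into 1 preparation by the labels, and the share of each region is not known. Of 12 colon markers Hoxb13 and Hoxd10 were listed at 0 in all libraries, and Car1 was listed at 0 in 4 of 6. The colon markers Car4, Slc26a3 and Aqp4 were above 0 in all libraries. In such bulk samples, fewer cells of a type and less RNA per cell cannot be told apart.

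Epithelial cells in contact with bacteria release reactive oxygen species through DUOX2 and NOX1, and nitric oxide through the enzyme encoded by Nos2. They also secrete serum amyloid A proteins, carry polymeric IgA into the lumen on the receptor encoded by Pigr, bind bacterial siderophores with lipocalin 2 and display fucose on surface glycans, which FUT2 attaches. Several of these genes are known to answer to the microbiota and to the cytokines IL-22 and IL-17.

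The serum amyloid A genes lie together on chromosome 7 of GRCm38, with Saa3 at chr7:46711998-46719615, Saa1 at chr7:46740497-46743181 and Saa2 at chr7:46751833-46754313. Between Saa1 and Saa2 lie 8651 bases, and between Saa3 and Saa1 20881. The parts of their coding sequences in which Saa1 and Saa2 differ are shown because reads from both genes can be divided between them when they are counted. The coding sequence is 369 bases long in both GENCODE vM21 transcripts, Saa1-201 and Saa2-201, with an identity of 95.1%. The stretch from base 73 to base 359 holds all 18 bases that differ, marked by capitals.
Saa1: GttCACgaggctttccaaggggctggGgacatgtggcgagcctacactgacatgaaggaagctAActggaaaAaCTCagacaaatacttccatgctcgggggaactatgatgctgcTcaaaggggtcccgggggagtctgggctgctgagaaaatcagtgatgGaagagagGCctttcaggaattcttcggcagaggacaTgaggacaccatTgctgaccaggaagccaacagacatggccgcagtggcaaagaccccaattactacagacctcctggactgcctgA
Saa2: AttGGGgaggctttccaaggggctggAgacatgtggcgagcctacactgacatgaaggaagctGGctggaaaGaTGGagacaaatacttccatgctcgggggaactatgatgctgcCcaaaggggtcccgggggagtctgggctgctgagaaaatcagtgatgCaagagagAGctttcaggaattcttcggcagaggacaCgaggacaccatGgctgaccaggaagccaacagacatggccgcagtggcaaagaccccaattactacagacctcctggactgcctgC
Of the 50-base windows of either transcript, 13.2% or 13.3% occur in the other as well, so most stretches of that length hold a base that separates them. Saa3 is more distant, with 75.9% identity to Saa1 over 377 aligned bases. RefSeq lists Saa1 and Saa2 as synonyms of each other, so the summed level of both is also given, which does not depend on the naming.

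The start-site regions of Saa1 (chr7:46742931-46743230, minus strand) and Saa2 (chr7:46751583-46751882, plus strand) are nearly as alike, with 95.3% identity. Each RefSeq window (GRCm38.p6) runs from 250 bases before to 50 bases after an annotated transcript start, which is the 5′ end of the gene for Saa2 and lies 201 bases inside the gene for Saa1, and capitals mark a match to TTGCNNAA, a C/EBP-type motif.
Saa1 window: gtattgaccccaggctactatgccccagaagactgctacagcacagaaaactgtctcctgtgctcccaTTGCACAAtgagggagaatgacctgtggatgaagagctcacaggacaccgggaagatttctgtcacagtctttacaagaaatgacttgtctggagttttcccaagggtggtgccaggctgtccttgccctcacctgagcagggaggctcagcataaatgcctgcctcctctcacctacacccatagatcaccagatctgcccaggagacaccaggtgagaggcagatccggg
Saa2 window: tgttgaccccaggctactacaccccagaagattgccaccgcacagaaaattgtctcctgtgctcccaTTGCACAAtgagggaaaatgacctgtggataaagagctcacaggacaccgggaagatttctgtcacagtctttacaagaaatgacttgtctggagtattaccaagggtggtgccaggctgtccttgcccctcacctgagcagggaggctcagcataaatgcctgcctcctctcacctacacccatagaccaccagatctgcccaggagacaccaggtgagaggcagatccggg
Counted from 0 at the start, the match begins at -182 in Saa1 and at -183 in Saa2. Saa3 and Lcn2 also hold this motif, making 4 of the 8 genes with a window, beside 10.8% of the 32851 mouse windows. The matches of Saa1 and Saa2 are not independent, because their windows are nearly alike, and no enrichment was tested.

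Duox2 and Duoxa2 are divergently transcribed neighbours on chromosome 2 (chr2:122279246-122298740 and chr2:122298900-122302885) with 159 bases between them. The window of Duoxa2 (chr2:122298650-122298949, plus strand) is shown because it spans these bases and the 5′ end of Duox2 as well. Capitals mark its only match to the motifs searched, a TATAAA that begins at -30 of the Duoxa2 start.
Duoxa2 window: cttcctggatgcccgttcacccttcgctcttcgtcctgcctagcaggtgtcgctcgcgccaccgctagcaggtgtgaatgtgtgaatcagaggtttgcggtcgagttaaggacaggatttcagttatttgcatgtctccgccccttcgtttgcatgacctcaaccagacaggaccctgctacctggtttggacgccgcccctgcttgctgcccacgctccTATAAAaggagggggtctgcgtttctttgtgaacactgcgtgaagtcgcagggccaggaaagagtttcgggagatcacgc
On both strands, the motifs searched were TTGCNNAA, TATAAA (in 13.6% of all windows), an NF-kB-type motif (4.79%), the STAT-type TTCNNNGAA (8.30%) and the E-box CAGCTG (16.3%). Nox1 held overlapping matches to the NF-kB-type motif that begin at -92 and -91 of its start, and Pigr held a STAT-type match that begins at 39. None of the 8 windows held the E-box. The windows of Duox2, Nox1 and Saa3 lie within the genes, with starts 513, 25857 and 3939 bases inside the 5′ ends of the gene spans, so they belong to inner transcript starts. These matches describe letters and not binding sites.

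Levels are given as TPM, a share of transcripts that is scaled to gene length and to the same total in every library. TPM keeps no number of reads, so the depth is unknown and no detection limit can be given. Genotypes were compared on log2(TPM + 1) with limma over the 12268 genes whose TPM averaged 1 or more across the libraries. A gene was called at a Benjamini-Hochberg adjusted p under 0.1. Each log2 fold change is Mtg16 KO minus WT on that scale, so changes of low genes are understated. Cbfa2t3, the gene that encodes MTG16 (chr8:122625136-122699332), had a TPM of 3.67, 6.69 and 4.52 in WT and 4.62, 6.43 and 3.23 in the libraries labelled Mtg16 KO, a log2 fold change of -0.06 (SE 0.27, limma adjusted p = 0.937). A gene-level TPM cannot show a missing exon, so every direction below rests on the labels. Epithelial genes were high in all libraries. The summed TPM of 9 epithelial markers lay between 10380.6 and 12202.7 in WT and between 9583.3 and 11195.0 in Mtg16 KO. Their fitted differences were above 0 for 4 and below 0 for 5, with 0 called. The log2 fold changes of Krt19 and Krt8 were 0.10 and -0.04, and those of Vil1 and Krt20 were -0.70 and -1.05. Across genes, Pearson's r between libraries lay between 0.931 and 0.980.

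None of the genes was called. Of the 10 genes, 8 reached the level for a test (Saa2 and Saa3 did not), and 0 of these 8 passed an adjusted p under 0.1 in limma, beside 0.0326% of all tested genes. At an unadjusted p under 0.05 there was 1 of 8, Saa1, beside 14.6% of all tested genes. The values of the genotypes overlapped for all 10 genes, whereas they did not overlap for 21.0% of the tested genes. The fitted difference was positive for Nox1 and negative for the other 7 tested genes. Their median log2 fold change was -0.21, and that of all tested genes -0.03.

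**Figure D1:**
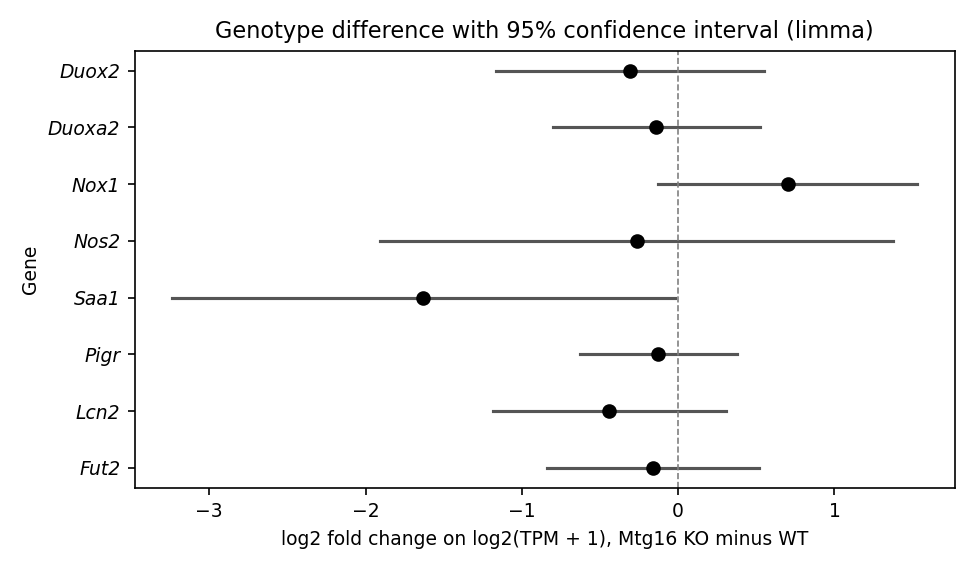
The log2 fold change (x axis, log2(TPM + 1), Mtg16 KO minus WT) of each of the 8 tested genes (y axis), with points for limma estimates and lines for 95% confidence intervals. The interval of Saa1 runs from -3.24 to -0.02, and the intervals of the other 7 genes include 0.

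The levels spanned a wide range. Pigr was the highest with a mean TPM of 2008.9, followed by Duox2 (79.4), Nos2 (53.8), Duoxa2 (37.2), Saa1 (23.8), Nox1 (4.0), Fut2 (3.55), Lcn2 (1.72), Saa3 (0.838) and Saa2 (0.0667). The ranges of all neighbours in this order overlapped over the 6 libraries, except that the Pigr values were all above those of Duox2. Pigr ranked between 28 and 101 among all genes of a library by TPM, so the IgA receptor was among the most abundant transcripts of these crypts.

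**Figure D2:**
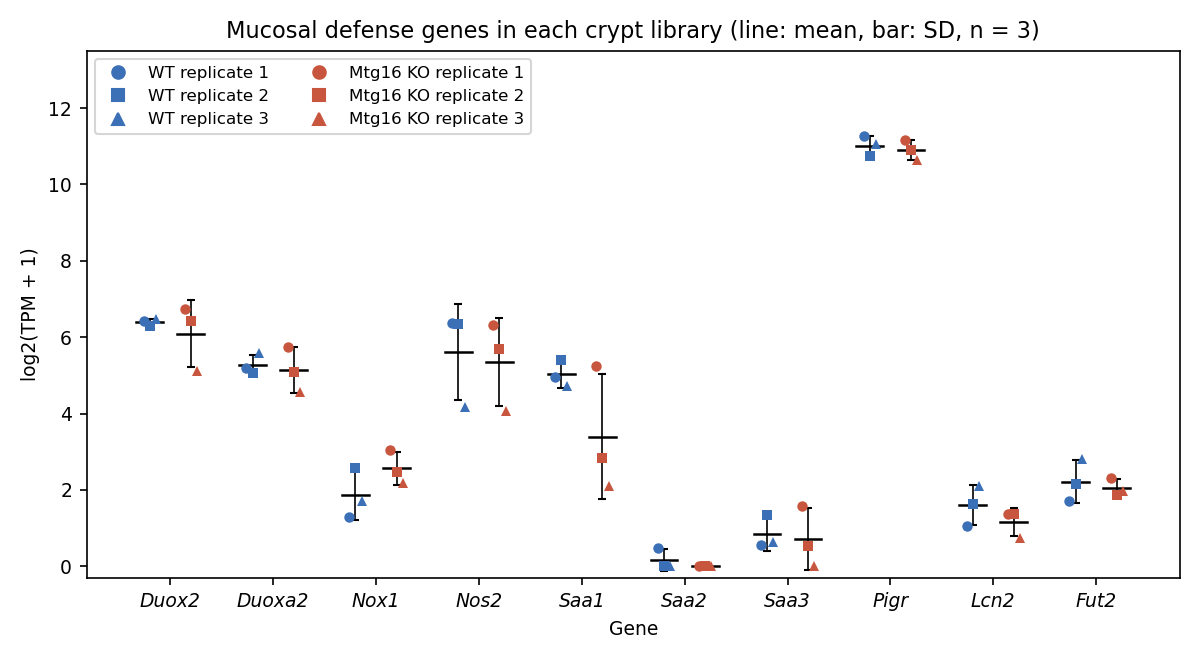
Level of each of the 10 genes (x axis) in each library as log2(TPM + 1) (y axis), with blue for WT, red for Mtg16 KO, shapes for replicate numbers, lines for means and bars for the SD (n = 3). The genotypes overlap for every gene, and Saa1 and Nos2 spread widest among the tested genes.

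Duox2 encodes the dual oxidase that releases hydrogen peroxide at the apical surface. WT replicates 1 to 3 had a TPM of 85.1, 78.1 and 87.9, and Mtg16 KO replicates 1 to 3 had 106, 85.4 and 33.5. The WT mice were alike, whereas the Mtg16 KO mice included both the highest and the lowest value. The means were 83.7 ± 5.05 and 75.0 ± 37.4 (SD, n = 3 each). The log2 fold change was -0.31 (SE 0.37, 95% interval -1.17 to 0.55, limma adjusted p = 0.711), and without Mtg16 KO replicate 3 it was 0.19. On the log2 scale the SD was 0.0872 in WT and 0.868 in Mtg16 KO, a difference in spread that was not tested.

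Duoxa2 encodes the factor that DUOX2 needs to leave the endoplasmic reticulum. Its TPM was 35.4, 32.6 and 46.7 in WT and 52.8, 33.3 and 22.6 in Mtg16 KO, again with Mtg16 KO replicate 1 highest and replicate 3 lowest. The means were 38.2 ± 7.43 and 36.2 ± 15.3 (SD, n = 3 each). The log2 fold change was -0.14 (SE 0.29, 95% interval -0.80 to 0.52, limma adjusted p = 0.840), and it was 0.15 without Mtg16 KO replicate 3 and 0.01 without WT replicate 3. Duox2 stood above its partner in every library, by 1.88 to 2.41 times in WT and by 1.48 to 2.57 times in Mtg16 KO.

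Nox1 (chrX:134086421-134137711) encodes the superoxide-producing oxidase of the gut epithelium. Its TPM was 1.45, 4.97 and 2.28 in WT and 7.19, 4.57 and 3.53 in Mtg16 KO. WT replicate 2 lay above 2 of the Mtg16 KO libraries, so the genotypes overlapped. The means were 2.90 ± 1.84 and 5.10 ± 1.89 (SD, n = 3 each), a log2 fold change of 0.70 (SE 0.36, 95% interval -0.13 to 1.53, limma adjusted p = 0.400). Duox2 exceeded Nox1 in every library, by between 9.50 and 58.7 times. Paneth cell markers were also lower in WT replicates 1 and 3. The 10 markers summed to a TPM of 9405.8, 20555.3 and 12461.5 in WT and 30984.0, 25263.6 and 25859.6 in Mtg16 KO, with fitted differences above 0 for all 10, none at 0 TPM in all libraries and 0 called in limma (7 at an unadjusted p under 0.05). Their part in the Nox1 values was not tested. The gene whose centred profile was nearest to that of Nox1 was a Paneth cell defensin gene, Defa35, with a root mean squared difference of 0.141 on the log2 scale over the 6 libraries. Each nearest profile, here and below, was picked from all tested genes over only 6 libraries. How near a profile would lie by chance was not tested. The TPM of Defa35 was 9.25, 21.6 and 10.6 in WT and 28.8, 23.3 and 19.9 in Mtg16 KO. The profile nearest to Duox2 was that of Gbp8, a guanylate-binding protein gene, with a difference of 0.147. Gbp8 had a TPM of 3.48, 2.02 and 2.79 in WT and of 3.89, 3.30 and 0.51 in Mtg16 KO.

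The partners that these oxidases need were detected. Of 12 listed NADPH oxidase partners, 7 were tested and 0 were called in limma (1 at an unadjusted p under 0.05), with a median log2 fold change of 0.12. Noxo1, the organizer of NOX1, had a TPM of 42.2, 63.1 and 45.8 in WT and 55.1, 57.4 and 50.2 in Mtg16 KO. Noxa1, its activator, had 24.6, 44.7 and 39.4 in WT and 44.8, 42.5 and 37.1 in Mtg16 KO. Both partners were thus present at higher TPM than Nox1 itself in every library. Cyba, which encodes the membrane subunit p22phox, had a TPM of 92.1, 103 and 101 in WT and 118, 106 and 113 in Mtg16 KO, a log2 fold change of 0.19 (limma adjusted p = 0.447) without overlap between the genotypes. The small GTPase gene Rac1 had a log2 fold change of -0.01. Nox3 and Nox4 were listed at 0 in all 6 libraries.

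Nos2 (chr11:78920787-78960226) encodes the inducible nitric oxide synthase. Its TPM was 81.3, 79.8 and 17.0 in WT and 78.9, 50.2 and 15.8 in Mtg16 KO. In either genotype replicate 3 was by far the lowest, so the spread within a genotype exceeded the difference between the means of 59.3 ± 36.7 and 48.3 ± 31.6 (SD, n = 3 each). The log2 fold change was -0.27 (SE 0.71, 95% interval -1.91 to 1.38, limma adjusted p = 0.882). It was 0.10 without WT replicate 1, 0.09 without WT replicate 2 and 0.38 without Mtg16 KO replicate 3. The same libraries held the least ileal transcript. Fabp6, the ileal bile acid binding protein gene, had a TPM of 1168, 1926 and 735 in WT and 2056, 1880 and 869 in Mtg16 KO. The 7 ileum markers, none at 0 TPM in all libraries, summed to 1968.3, 2519.4 and 1194.1 in WT and 2714.1, 2365.2 and 1216.5 in Mtg16 KO. Their part in the Nos2 values was not tested. The nearest profile was that of Tmsb15b2, a thymosin beta gene, with a root mean squared difference of 0.188 and a TPM of 2.67, 2.43 and 0.00 in WT and 2.43, 1.48 and 0.00 in Mtg16 KO.

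Saa1 encodes an acute phase apolipoprotein that intestinal epithelium makes in response to adherent bacteria. Its TPM was 30.1, 41.3 and 25.4 in WT and 36.7, 6.21 and 3.30 in Mtg16 KO. Mtg16 KO replicates 2 and 3 lay below every WT library, and Mtg16 KO replicate 1 lay within the WT range. The mean was 32.3 ± 8.18 in WT and 15.4 ± 18.5 in Mtg16 KO (SD, n = 3 each). The log2 fold change of -1.63 (SE 0.70, 95% interval -3.24 to -0.02) was the farthest from 0 of the 8 tested genes, with an unadjusted p of 0.0475 and an adjusted p of 0.339 in limma. It was -2.55 without Mtg16 KO replicate 1 and -0.98 without Mtg16 KO replicate 3, and the adjusted p stayed above the threshold in both cases. The highest value of Saa1 was 11.1 times the lowest among the Mtg16 KO mice and 1.63 times among the WT mice.

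Saa2 was listed at 0 in 5 of 6 libraries and at a TPM of 0.40 in WT replicate 1. The summed level of Saa1 and Saa2 therefore differed from that of Saa1 alone in that library only, with 30.5. The difference of the summed level was -1.64 on the log2 scale (exact permutation test, two-sided, p = 0.300, where 3 mice against 3 cannot go below 0.1). Saa3, which macrophages and adipocytes express as well, had a TPM of 0.47, 1.54 and 0.56 in WT and 2.01, 0.45 and 0.00 in Mtg16 KO, and was too low for the fit over all genes (exact permutation test, two-sided, p = 0.8). Its highest values were in Mtg16 KO replicate 1 and WT replicate 2, the same libraries that were highest for Saa1. These libraries also held the most B and plasma cell transcript. The 9 B and plasma cell markers found in the table, none at 0 TPM in all libraries, summed to 38.4, 62.9 and 23.1 in WT and 87.0, 37.2 and 33.9 in Mtg16 KO. The low libraries were not shared. The marker sum was lowest in WT replicate 3, whereas Saa1 was lowest in Mtg16 KO replicates 2 and 3. The part of these markers in the Saa values was not tested. The nearest profile to Saa1 was that of Oas1g, an interferon-induced oligoadenylate synthetase gene, but at a root mean squared difference of 0.576 it was far from it. Oas1g had a TPM of 11.0, 9.43 and 7.72 in WT and 5.24, 2.79 and 1.10 in Mtg16 KO.

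Other acute phase genes were close to absent. Of 10 listed relatives, Saa4, Orm1, Orm2 and Orm3 were listed at 0 in all libraries and 2 were tested, with 0 called and 0 at an unadjusted p under 0.05 in limma. Complement C3 had a TPM between 0.87 and 2.61, and Lbp, the lipopolysaccharide-binding protein gene, between 0.59 and 2.12.

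Pigr (chr1:130826684-130852249) had the smallest relative spread. Its TPM was 2445, 1713 and 2131 in WT and 2278, 1897 and 1589 in Mtg16 KO. Mtg16 KO replicates 1 and 2 lay within the WT range, and Mtg16 KO replicate 3 lay below it. The means were 2096.4 ± 367 and 1921.4 ± 345 (SD, n = 3 each). The log2 fold change was -0.13 (SE 0.22, 95% interval -0.63 to 0.37, limma adjusted p = 0.804), so the interval reaches from a decrease of 0.63 to an increase of 0.37 on the log2 scale. Without Mtg16 KO replicate 3 the estimate was 0.0031.

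Of 10 genes of IgA delivery and plasma cell recruitment, 8 were tested and 0 were called in limma (2 at an unadjusted p under 0.05), with a median log2 fold change of -0.05. Ccl25, the small intestinal chemokine that attracts lymphocytes, had a TPM between 503 and 756 in WT and between 507 and 619 in Mtg16 KO. Irf1, a transcription factor known to act on Pigr, had a TPM of 215, 140 and 189 in WT and 158, 191 and 98.6 in Mtg16 KO, a log2 fold change of -0.31 (limma adjusted p = 0.581). Rab11a and Yes1, both involved in the transport of the receptor across the cell, had log2 fold changes of -0.01 and 0.19. Jchain encodes the chain that joins IgA into the polymer that the receptor carries and is made by plasma cells, not by epithelium. It had a TPM of 7.56, 14.8 and 5.84 in WT and 35.5, 17.5 and 16.5 in Mtg16 KO. The genotypes did not overlap, and the log2 fold change was 1.23 (SE 0.37, limma adjusted p = 0.267). Jchain was picked after its values were seen, and the genotypes did not overlap for 21.0% of all tested genes. From the same B and plasma cell list, Mzb1, Pou2af1 and Derl3 had log2 fold changes of 0.09, 0.10 and -0.29, with overlap. The median of the 8 tested markers of that list was -0.03. Pigr and Jchain had fitted differences of opposite sign, and neither was called.

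Lcn2 (chr2:32384637-32387739) encodes lipocalin 2, which is also a neutrophil granule protein. Its TPM was 1.09, 2.10 and 3.31 in WT and 1.57, 1.59 and 0.68 in Mtg16 KO. WT replicate 1 lay below 2 of the Mtg16 KO libraries, so the genotypes overlapped. The means were 2.17 ± 1.11 and 1.28 ± 0.520 (SD, n = 3 each), a log2 fold change of -0.44 (SE 0.32, 95% interval -1.18 to 0.30, limma adjusted p = 0.531). Neutrophil markers were at or near 0 in these libraries. Of 12 such markers, S100a8, S100a9, Ly6g, Mpo, Elane, Camp and Ngp were listed at 0 in all 6 libraries, and the whole list summed to a TPM between 1.05 and 1.33 in WT and between 0.330 and 0.790 in Mtg16 KO.

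Fut2 (chr7:45648591-45666394) encodes the transferase that adds terminal fucose to epithelial glycans. Its TPM was 2.26, 3.43 and 5.99 in WT and 3.98, 2.66 and 2.96 in Mtg16 KO. All Mtg16 KO values lay within the WT range. The means were 3.89 ± 1.91 and 3.20 ± 0.692 (SD, n = 3 each), a log2 fold change of -0.16 (SE 0.29, 95% interval -0.84 to 0.52, limma adjusted p = 0.818). It was 0.13 without WT replicate 3, the highest library. Of 17 genes of fucosylation listed, 12 were tested and 0 were called in limma (3 at an unadjusted p under 0.05), with a median log2 fold change of -0.04. Gmds, which starts the synthesis of GDP-fucose, had a TPM of 336, 387 and 343 in WT and 358, 334 and 351 in Mtg16 KO. Tsta3, which completes that synthesis, had a log2 fold change of 0.11, and the core fucosyltransferase gene Fut8 had -0.10. Slc35c1, which moves GDP-fucose into the Golgi, had a TPM of 113, 117 and 134 in WT and 92.0, 89.2 and 91.5 in Mtg16 KO. The genotypes did not overlap for Slc35c1, with a log2 fold change of -0.41 (SE 0.12, limma adjusted p = 0.263).

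The sensors and signals that act on these genes were compared in the same way. Of 21 genes of microbial pattern recognition, 17 were tested and 0 were called in limma (3 at an unadjusted p under 0.05), with a median log2 fold change of -0.05. Nlrp6, an epithelial inflammasome sensor, had a TPM between 159 and 184 in WT and between 137 and 173 in Mtg16 KO. The adaptor and kinase genes Ticam1, Tollip and Irak1 had log2 fold changes of -0.48, -0.22 and 0.04, with overlap. Of 11 genes of IL-22 and IL-17 receptor signalling, 10 were tested, 0 were called and 0 had an unadjusted p under 0.05 in limma, with a median of -0.27. Il10rb, the shared receptor chain through which IL-22 signals, had a TPM of 113, 66.7 and 77.7 in WT and 71.5, 54.7 and 61.8 in Mtg16 KO. Stat3, the transcription factor that IL-22 activates, had 66.6, 44.6 and 52.0 in WT and 56.5, 47.6 and 32.6 in Mtg16 KO, with overlap. Il17rc, a chain of the IL-17 receptor, and the kinase gene Jak1 had log2 fold changes of -0.33 and -0.26. Neither list held a called gene, and the median of the pattern recognition list lay near the -0.03 of all tested genes.

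All 13 NF-kB regulators were tested and 0 were called in limma, with 3 at an unadjusted p under 0.05 and a median log2 fold change of -0.16. Nfkbia encodes the inhibitor that NF-kB itself induces and had a TPM of 154, 122 and 93.9 in WT and 86.1, 91.0 and 67.7 in Mtg16 KO. The genotypes did not overlap, and its log2 fold change was -0.57 (SE 0.20, limma adjusted p = 0.291). Bcl3, a nuclear co-regulator of the same family, had a TPM of 71.5, 68.5 and 58.8 in WT and 48.5, 45.9 and 40.2 in Mtg16 KO, also without overlap (log2 fold change -0.55, limma adjusted p = 0.233). Nfkbiz, which IL-17 induces, had the widest spread of the named regulators, with 96.6, 54.1 and 49.2 in WT and 50.4, 44.2 and 23.6 in Mtg16 KO.

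Of 17 cytokine-induced epithelial genes, 9 were tested and 0 were called in limma (2 at an unadjusted p under 0.05), with a median log2 fold change of -0.45. Reg3b, an antibacterial lectin gene that IL-22 induces, had a TPM of 8751, 6513 and 5426 in WT and 6099, 3254 and 3979 in Mtg16 KO. Its relative Reg3g had 5855, 4847 and 3785 in WT and 5115, 2680 and 3359 in Mtg16 KO. In both, Mtg16 KO replicates 2 and 3 lay below all WT libraries and replicate 1 lay within the WT range, the same arrangement of libraries as for Saa1. Tifa, an adaptor for a bacterial sugar sensor, had a TPM of 65.0, 50.4 and 65.2 in WT and 96.1, 85.1 and 90.8 in Mtg16 KO without overlap (log2 fold change 0.59, limma adjusted p = 0.225). Tgm2, a transglutaminase gene, had a log2 fold change of -0.02. Cxcl5, S100a8 and S100a9 were listed at 0 in all libraries. Over the 8 pathway lists together, 78 genes were tested, and the genotypes did not overlap for 25.6% of them, beside the 21.0% of all tested genes.

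Mice of the same genotype differed more in these genes than in most tested genes, but no more than in several marker lists. The pooled within-genotype SD on the log2 scale had a median of 0.508 over the 8 tested genes and of 0.210 over all tested genes. For Nos2 (1.21) and Saa1 (1.18) it was larger than in 99.1% of the tested genes, for Duox2 (0.617) than in 95.5% and for Nox1 (0.556) than in 94.0%. Pigr, the most abundant of the genes, had 0.259, larger than in 65.0%. The median was 0.724 over the mature enterocyte markers, 0.702 over the T and NK cell markers, 0.615 over the B and plasma cell markers and 0.554 over the ileum markers, all above that of the mucosal defense genes.

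**Figure D3:**
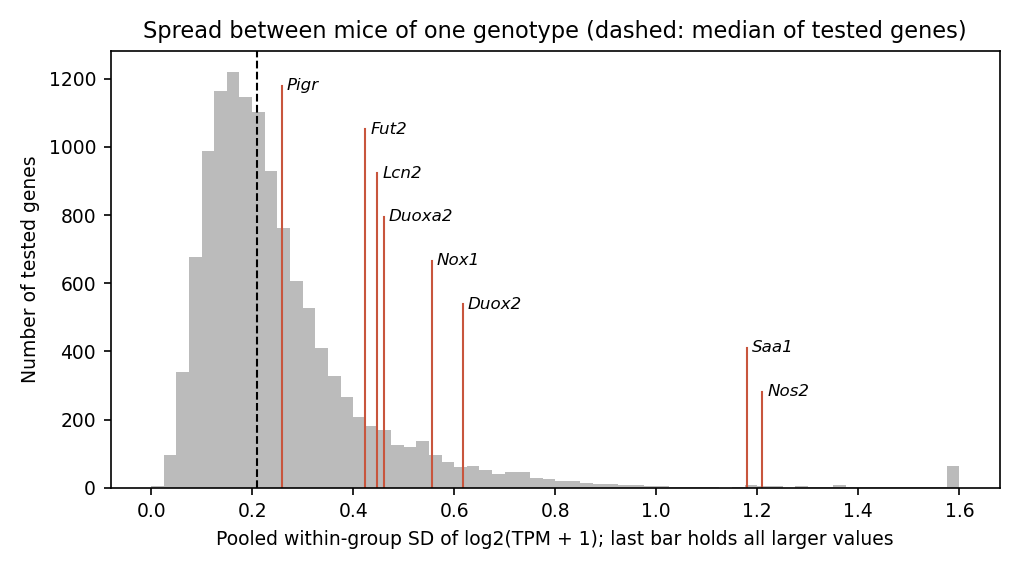
Number of tested genes (y axis) by the pooled SD of log2(TPM + 1) between mice of the same genotype (x axis), with gray bars for all 12268 tested genes, a dashed line for their median of 0.210 and red lines for the 8 tested genes. All 8 lie to the right of the median, with Saa1 (1.18) and Nos2 (1.21) farthest out.

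The same library was often the lowest, whereas the highest library varied. Mtg16 KO replicate 3 was the lowest library for 7 of the 10 genes (Duox2, Duoxa2, Nos2, Saa1, Saa3, Pigr and Lcn2), and it was the lowest for 31.5% of all tested genes. Nox1 and Fut2 were lowest in WT replicate 1. Mtg16 KO replicate 1 was the highest for 4 genes (Duox2, Duoxa2, Nox1 and Saa3) and for 7.13% of all tested genes. WT replicates 1, 2 and 3 were the highest for 3, 1 and 2 of the genes, beside 31.4%, 8.89% and 14.4% of all tested genes. With each gene centred on its mean of the 6 libraries, the median of the 8 tested genes was -0.64 in Mtg16 KO replicate 3 and 0.52 in Mtg16 KO replicate 1. In WT replicates 1 to 3 it was 0.08, 0.15 and 0.30. The extremes of the group of genes were therefore both found among the Mtg16 KO mice.

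**Figure D4:**
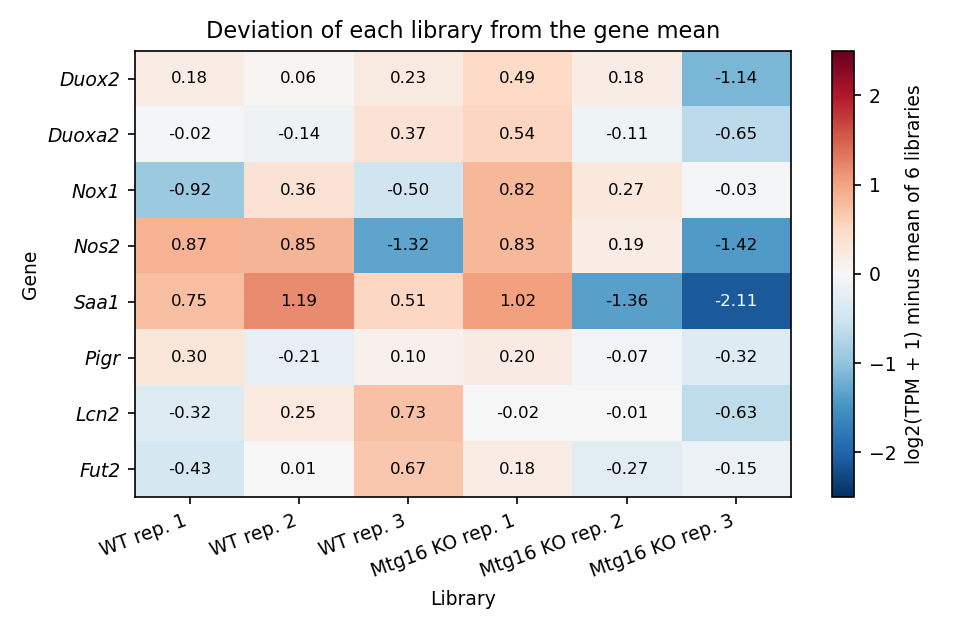
Deviation of log2(TPM + 1) from the mean of the 6 libraries (color, with the value in each cell) for the 8 tested genes (rows) in each library (columns). Saa1 reaches -2.11 and Nos2 -1.42 in Mtg16 KO replicate 3, where all 8 values are below 0.

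Other cell types in the preparations also varied between these libraries. The 10 T and NK cell markers in the table, which mark intraepithelial lymphocytes among other cells, summed to a TPM of 496, 151 and 281 in WT and 231, 188 and 79.4 in Mtg16 KO. Mtg16 KO replicate 3 was lowest for these markers as for Duox2, and it was the lowest for 31.5% of all tested genes. The highest library was not shared, with WT replicate 1 for the markers and Mtg16 KO replicate 1 for Duox2. The WT sums differed widely, whereas the WT values of Duox2 were alike. All 10 were tested and had fitted differences below 0 (median -0.81), none was at 0 TPM in all libraries, and 0 were called in limma (3 at an unadjusted p under 0.05). The 13 mature enterocyte markers summed to between 13672.6 and 40612.6 in WT and between 6771.3 and 13276.1 in Mtg16 KO, with fitted differences below 0 for all 13, a median of -1.21 and 9 at an unadjusted p under 0.05. Macrophage and monocyte markers, 13 in number and none at 0 TPM in all libraries, summed to between 60.5 and 77.8 in WT and between 52.3 and 55.8 in Mtg16 KO. The 9 proximal small intestine markers summed to between 770 and 2137.6 in WT and between 412 and 750 in Mtg16 KO, with a median of -1.15 and 7 at an unadjusted p under 0.05. Goblet cell markers (10 tested) had a median of -0.32, tuft cell markers (5 tested) of -0.49, fibroblast and muscle markers (3 tested) of 0.17, endothelial markers (2 tested) of -0.10, ileum markers (7 tested) of -0.18, colon markers (7 tested) of 0.24 and B and plasma cell markers (8 tested) of -0.03. Over the 14 cell type lists 102 genes were tested and 0 were called in limma, with 33.3% at an unadjusted p under 0.05, beside the 14.6% of all tested genes. The part of these cell types in the values of the mucosal defense genes was not tested.

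**Figure D5:**
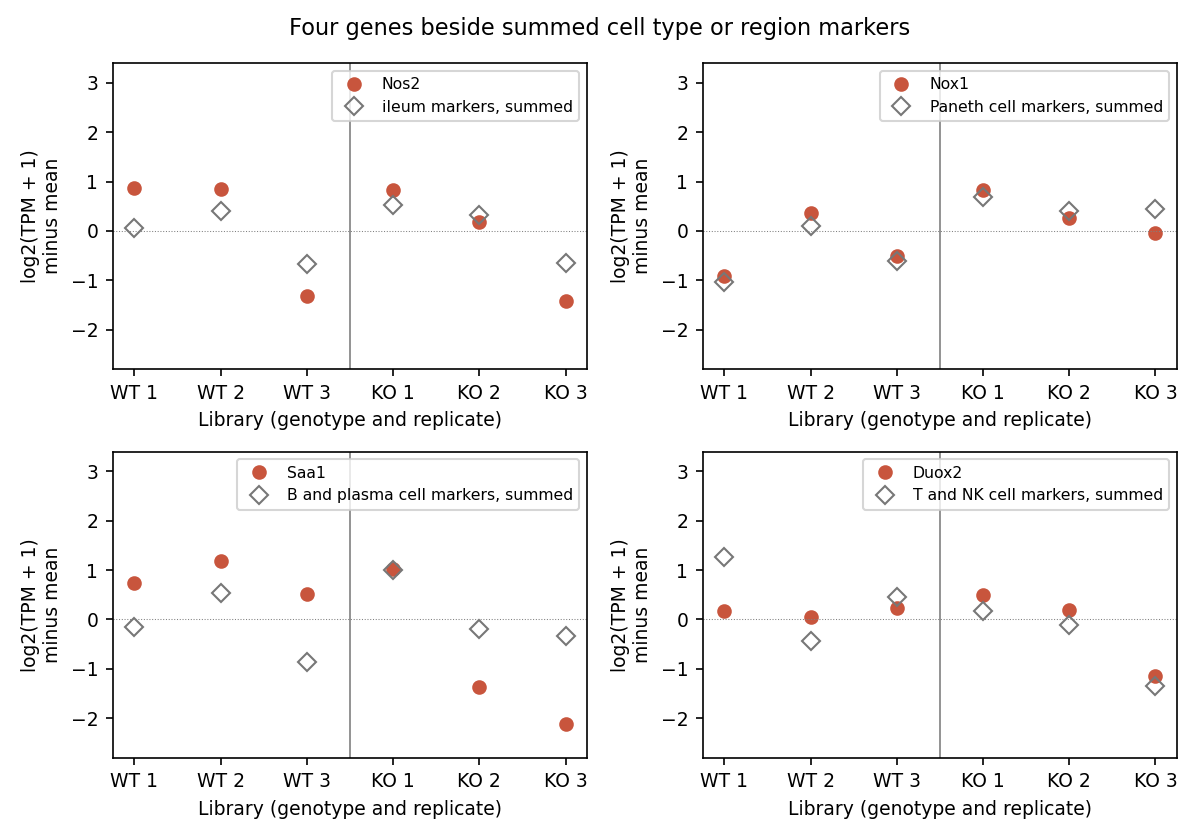
Deviation of log2(TPM + 1) from its mean over the 6 libraries (y axis) by library (x axis), with red points for Nos2, Nox1, Saa1 and Duox2 and open diamonds for summed markers of ileum, Paneth cells, B and plasma cells, and T and NK cells, pairs that were chosen after the values were seen. Nos2 and the ileum markers are both lowest in the replicate 3 library of each genotype, and Nox1 and the Paneth cell markers are both lowest in WT replicate 1. Saa1 and the B and plasma cell markers are lowest in different libraries, and Duox2 and the T and NK cell markers are highest in different libraries.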

How the data were processed

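RNA sequencing libraries of intestinal crypts from 3 WT and 3 Mtg16 KO mice were analysed. The authors deposited RSEM TPM values by gene symbol, rounded to 2 decimals, in 1 table whose 6 value columns were all used (0 left out). The submitters' processing notes name cutadapt 1.9.1, STAR 2.5.2a, RSEM 1.3.0, DESeq2 1.12.3 and mm10, without giving their roles. TPM keeps no depth, so no count test, counting interval or detection limit was used.

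TPM values were transformed as log2(TPM + 1). Genes whose TPM averaged 1 or more (12268 of 24736) were tested with limma 3.58.1 (lmFit, eBayes with an intensity trend) in R 4.3.3, without covariates. Benjamini-Hochberg adjustment ran over all tested genes, with calls at an adjusted p under 0.1. The summed level of Saa1 and Saa2 and the genes below the filter were compared by two-sided exact permutation tests. The calculation was tested on simulated data. The labels give the libraries as biological triplicates.

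Named genes were the 10 genes, Cbfa2t3, up to 4 tested genes with the highest mean TPM of each of 8 pathway lists (called genes first), up to 3 of each of 14 cell type lists with those at 0 in all libraries, and the nearest profile of each tested gene with an SD over 0.5. Jchain was named outside the pathway rule, after its values were seen, and is among the 3 highest of the B and plasma cell list. Car1 was named outside the cell type rule, for its values at 0. Mzb1, Pou2af1 and Derl3 were named beside Jchain, and Vil1 and Krt20 among the epithelial markers, also outside the rules. The genes and lists were chosen with earlier results of these data known. Positions were taken from RefSeq GRCm38.p6 (10 of 10 genes matched), windows around transcript starts from the same release (8 of 10, not Nos2 and Fut2) and coding sequences from GENCODE vM21. The effect of other pseudocounts, filters, scalings, moderation, a replicate block, another threshold and leaving out each library is given in the closing section.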

Additional observations from a re-analysis of the deposited data

How the results depend on the processing

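The number of called genes, 4 of 12268 (2 higher and 2 lower), varied with most settings, while no mucosal defense gene was called under any setting run. It was 0 without a filter on low values, 15 at a mean TPM of at least 5, 1 with median-ratio scaling, 1 with quantile normalization, 0 without an intensity trend, 20 with robust moderation and 0 at an adjusted p under 0.05 (unadjusted p under 0.05 in limma for 2187, 1502, 1819, 1853, 1754, 1760 and 1789 genes). It lay between 0 (without Mtg16 KO replicate 3) and 40 (without WT replicate 1) when each library was left out, and was 1, 2, 4 and 9 without Mtg16 KO replicates 1 and 2 and WT replicates 2 and 3. Of 109 alternative values of the 8 tested genes, 101 kept their sign and 8 changed it, all on leaving out a library. Leaving out each library in turn gave log2 fold changes of -0.63 to 0.19 for Duox2, -0.45 to 0.15 for Duoxa2, 0.42 to 1.06 for Nox1, -0.99 to 0.38 for Nos2, -2.55 to -0.98 for Saa1, -0.26 to 0.0031 for Pigr, -0.71 to -0.19 for Lcn2, -0.42 to 0.13 for Fut2 and -2.56 to -0.99 for the summed Saa1 and Saa2. The cause was not tested. A replicate block on the replicate number gave 1201 called genes, of which 385 were higher and 816 lower, while the Saa1 fold change remained -1.63 (SE 0.50, limma adjusted p = 0.106), the lowest adjusted p of any of the 8 genes in any setting. Across genes, the departures of libraries 1, 2 and 3 from their genotype's mean had an r of 0.429, 0.0753 and 0.237 with those of the same number in the other genotype, not all above 0.1, and neither the labels nor the methods pair the mice, so the numbers were not taken as pairs. With the block 9.79% of all tested genes, 19.2% of the 78 pathway genes and 36.3% of the 102 cell type markers were called. Scaling moved the median log2 fold change of all tested genes from -0.03 to at most 0.02. The depth behind TPM is unknown, which leaves the counting error of Lcn2, Fut2, Nox1, Saa2 and Saa3 unknown. The labels give replicates of 1 age and sex, with no batch or date.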
